A study of Homo sapiens with 24 samples.

Results

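The response to added miR-301b-3p was measured in T-47D breast cancer cells whose own ESR1 gene, which encodes estrogen receptor alpha (ER), carries the D538G mutation in heterozygous form. The members are the 4 RNA-seq libraries of D538G cells that received the miR-301b-3p mimic or the mimic negative control, of 24 libraries in the series, and all 26364 genes of the deposited count table were followed. T-47D is an established ER-positive luminal line, and the D538G cells were 2 clones made by genome editing, A5 and C2, each of which is a single clone and which the study uses as biological duplicates. Each clone gave 1 library per condition, so there are 2 libraries with the mimic and 2 controls. A mimic is a synthetic double-stranded RNA that is loaded into Argonaute like the cell's own miRNA, and its negative control has no intended target. All cells were kept in hormone-deprived medium, transfected at 10 nM and collected 24 h later, and libraries were made from poly-A RNA, which does not report the mature miRNA itself. The same mimic and control were given to 2 WT clones (D1 and D4) and 2 clones with the Y537S mutation of ESR1, and the D538G clones also received a miR-181c-5p mimic. These libraries serve below as comparisons.

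A miRNA guides an Argonaute protein to messenger RNAs, mostly through its seed, the bases 2 to 8 from the 5′ end, which pair with complementary sites in the 3′UTR. Binding shortens the life of the messenger and lowers its translation, so that direct targets of an added miRNA tend to lose RNA, usually by modest amounts. miR-301b-3p belongs to the joint family of miR-130 and miR-301, whose members share 1 seed and therefore much of their target range, and ESR1, DICER1 and TGF-beta receptors are among the targets named in the literature. The study asked which genes of ER mutant cells respond when miR-301b is added. The mature sequences below, from RefSeq on GRCh38.p14, have the seed in capitals and show that the first 4 share it, whereas miR-181c-5p, the mimic of the other comparison, has another seed.
hsa-miR-301b-3p: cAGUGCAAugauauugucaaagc
hsa-miR-301a-3p: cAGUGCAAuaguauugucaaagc
hsa-miR-130b-3p: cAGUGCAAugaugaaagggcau
hsa-miR-454-3p: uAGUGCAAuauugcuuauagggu
hsa-miR-181c-5p: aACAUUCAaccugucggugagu

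miR-301a-3p carries the same base as miR-301b-3p at 21 of 23 positions. Sites for the mimic were read from the 3′UTRs of the GENCODE annotation of GRCh37 (hg19), the build of the deposited counts. An 8-base site is TTGCACTA (the match to the seed followed by A), a 7-base site is TTGCACT, a 7-base A1 site is TGCACTA and a 6-base site is TGCACT, each searched on the messenger strand only and each gene counted once under its best site. The stretches below are 30 bases from the 3′UTRs of genes that fell most clearly or that the study follows. Capitals mark the first site of the best kind in that 3′UTR. They are given on the strand of the messenger.
CALM2: gtacttaaaagTTGCACTAttgcaaaacgg
ENPP5: atttagcaactTTGCACTAtgtaaagtacc
FBXO28: gcaccttaagaTTGCACTAttttatgcatt
RAB5A: agttcagtataTTGCACTAattattttagg
ACBD5: acatatatattTTGCACTAcacaaacgata
PIK3CB: tcattttgcacTTGCACTAaattgaacatg
ESR1: ggcacttcaattTTGCACTgtcttttgaga
PRKD3: ccatgaaattaaTTGCACTctttgtatttg
TWF1: ctgacaataatgTTGCACTtgtttactaaa
DICER1: atttttttttttTTGCACTgtaactataat
CXCL12: tgtgacattataTGCACTAgcaataaaatg
TMED7: caagccctattcTGCACTgttcagttttat

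The first 6 of these genes have an 8-base site, ESR1, PRKD3, TWF1 and DICER1 a 7-base site, CXCL12 a 7-base A1 site and TMED7 a 6-base site only. The stretches lie at chr2:47387493-47387522 (CALM2, minus strand), chr6:46128750-46128779 (ENPP5, minus), chr1:224348676-224348705 (FBXO28, plus), chr3:20026466-20026495 (RAB5A, plus), chr10:27486185-27486214 (ACBD5, minus) and chr3:138374156-138374185 (PIK3CB, minus). Those of the other genes lie at chr6:152423855-152423884 (ESR1, plus), chr2:37478121-37478150 (PRKD3, minus), chr12:44187993-44188022 (TWF1, minus), chr14:95555371-95555400 (DICER1, minus), chr10:44872598-44872627 (CXCL12, minus) and chr5:114951437-114951466 (TMED7, minus). Of the 13125 tested genes with an annotated 3′UTR, 3.32% had an 8-base site as their best match, 12.8% a 7-base site, 3.59% a 7-base A1 site, 20.4% a 6-base site and 59.8% none.

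The 4 libraries held 33756400 to 41688700 counts, and genes are given as CPM, the count relative to the library total after scaling with TMM factors (0.989 to 1.01), the A5 value before the C2 value. The libraries matched the labelled cell type. The 9 luminal markers summed to 10204 and 10232 CPM in the controls and 9922 and 10767 CPM with the mimic, whereas the 4 blood markers summed to 3.47 to 5.73 CPM with PTPRC at 0 in every library, and the 3 endothelial markers to at most 0.164 CPM with CDH5 at 0. The 9 basal or mesenchymal markers summed to 113 and 142 CPM in the controls and 142 and 176 CPM with the mimic, nearly all of it COL1A1 and FN1. None of its 5 tested members passed, and its part in the results was not tested. The 2 clones were not copies of each other, with a chi-square per gene of 14.2 between the controls and 20.4 between the mimic libraries, where 1 is counting noise.

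The mimic lowered 964 and raised 786 of 14845 genes tested (quasi-likelihood test of edgeR, Benjamini-Hochberg adjusted p under 0.05). That is 11.8% of genes, 6.49% falling and 5.29% rising, and each of the 1750 moved the same way in both clones with no overlap between the 2 mimic libraries and the 2 controls (58.2% of all genes tested had no such overlap). Changes were modest, and log2 fold changes are given below ± SE with 2 libraries a group. The median log2 fold change was −0.48 among the genes that fell and 0.45 among those that rose, and 40 fell and 27 rose by more than 1 on the log2 scale. Clone C2 moved further than A5 in 876 of the 964 falls and 650 of the 786 rises. With the clone as a replicate block, 4941 genes passed (33.3%), and 744 passed when the mimic library of C2 was left out, 939 without the control library of C2. The smallest two-sided p of an exact permutation test of 2 libraries against 2 is 0.333, so single-gene p-values rest on a spread estimated across genes, with clones of 1 line as the replicates.

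The genes that moved also differed in base composition. The median GC content of the transcript was 38.9% among genes that fell, 61.2% among genes that rose and 48.8% over all genes tested. Across the 14313 genes with a GC value, Spearman's rho between the log2 fold change and GC content was 0.62, with 0.52 in the A5 pair and 0.59 in the C2 pair. It was 0.56 for the same mimic in WT cells and 0.54 in Y537S cells. These are descriptions across genes that share libraries. A correction that removes each library's trend on GC content gave 213 genes, 77 higher and 136 lower. Correction and replicate block together gave 2411 (16.8%), of which 1131 rose (7.9%) and 1280 fell (8.94%), and 989 of these genes were among the 1750. A call is said below to hold where it also passed in that second fit. That fit called more genes than the test without a block, whereas the GC correction alone called far fewer. Holding is therefore a lenient check.

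The largest falls, in genes whose mean reached 3 log2 CPM, included genes of the cytoskeleton, secretory pathway and cell surface. CHIC1, a membrane-associated protein, was at 14.4 and 13.3 CPM in the controls and 5.73 and 4.21 CPM with the mimic, a log2 fold change of −1.48 ± 0.20. GMFB, which regulates branching of actin filaments, was at 95.1 and 106 CPM in the controls and 42.4 and 32.0 CPM with the mimic (−1.44 ± 0.13). TWF1, the actin monomer-binding protein twinfilin, was at 106 and 117 CPM in the controls and 44.2 and 40.4 CPM with the mimic (−1.39 ± 0.096). All 3 genes were lower in both mimic libraries than in either control. ENPP5, of the ectonucleotide phosphodiesterase family, went from 32.1 and 36.6 to 14.2 and 11.6 CPM (−1.41 ± 0.14), and the transcription factor MYBL1 (A-MYB) went from 81.6 and 101 to 39.6 and 34.3 CPM (−1.30 ± 0.12). Both hold 8-base sites, MYBL1 with 4 sites of 7 or 8 bases in all and ENPP5 with 2. HPRT1, of purine salvage, fell by 1.29 and GJA1, the gap junction protein connexin 43, by 1.18 on the log2 scale. IER3IP1 and GOLT1B, proteins of the endoplasmic reticulum and Golgi, fell by 1.15 and 1.14, C12orf75 by 1.18. TMED7, a cargo receptor between the endoplasmic reticulum and Golgi, was at 102 and 119 CPM in the controls and 51.7 and 39.3 CPM with the mimic (−1.28 ± 0.13). It overlaps the read-through gene TMED7-TICAM2 on the same strand, so that its reads may be shared. CXCL12, a chemokine that estrogen induces, was at 141 and 135 CPM in the controls and 72.0 and 46.0 CPM with the mimic (−1.23 ± 0.17). Adjusted p-values of these 12 falls lay between 0.000607 and 0.0161 (edgeR), and all 12 passed with the block and GC correction. With the GC correction alone GJA1 did not pass (adjusted p = 0.112, edgeR). Of these 12 genes, 5 had an 8-base site, 5 a 7-base site, CXCL12 a 7-base A1 site and TMED7 a 6-base site.

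Among the largest rises, FGFR4, a receptor tyrosine kinase for fibroblast growth factors, stood first. It was at 48.7 and 48.1 CPM in the controls and 113 and 128 CPM with the mimic, so that the mimic libraries were both above the controls by more than the spread between clones (1.31 ± 0.094, adjusted p = 0.000607, edgeR). DDIT4 (REDD1), an inhibitor of mTORC1 that stress induces, was at 29.9 and 25.4 CPM in the controls and 61.3 and 52.6 CPM with the mimic (1.04 ± 0.12). CEBPD, a transcription factor of the C/EBP family, went from 9.12 and 10.6 to 19.3 and 20.6 CPM (1.02 ± 0.14). LIN28A, the RNA-binding protein that blocks let-7 maturation, went from 21.5 and 21.1 to 39.6 and 43.0 CPM (0.96 ± 0.11), and DNMT3B, a DNA methyltransferase, went from 16.0 and 14.4 to 28.0 and 28.8 CPM (0.90 ± 0.12). UNC5B, a netrin receptor, and IGFBPL1 rose by 1.25 and 1.25, with clones that differed more. IGFBPL1 was at 6.22 and 8.03 CPM in the controls and 10.7 and 23.1 CPM with the mimic. The others were SSPO (0.99), SIDT1 (0.97), the mitochondrial phosphatase PTPMT1 (0.96), IFFO2 (0.91) and METRN (0.90). All 12 passed with the block and GC correction. With the GC correction alone FGFR4 and DDIT4 were among those that passed. CEBPD, UNC5B, SSPO and IGFBPL1 were among those that did not (adjusted p = 0.0802 to 0.118, edgeR). SSPO has no annotated 3′UTR. None of the other 11 had an 8-base or 7-base site, LIN28A had a 7-base A1 site and SIDT1 and METRN a 6-base site.

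**Figure D1:**
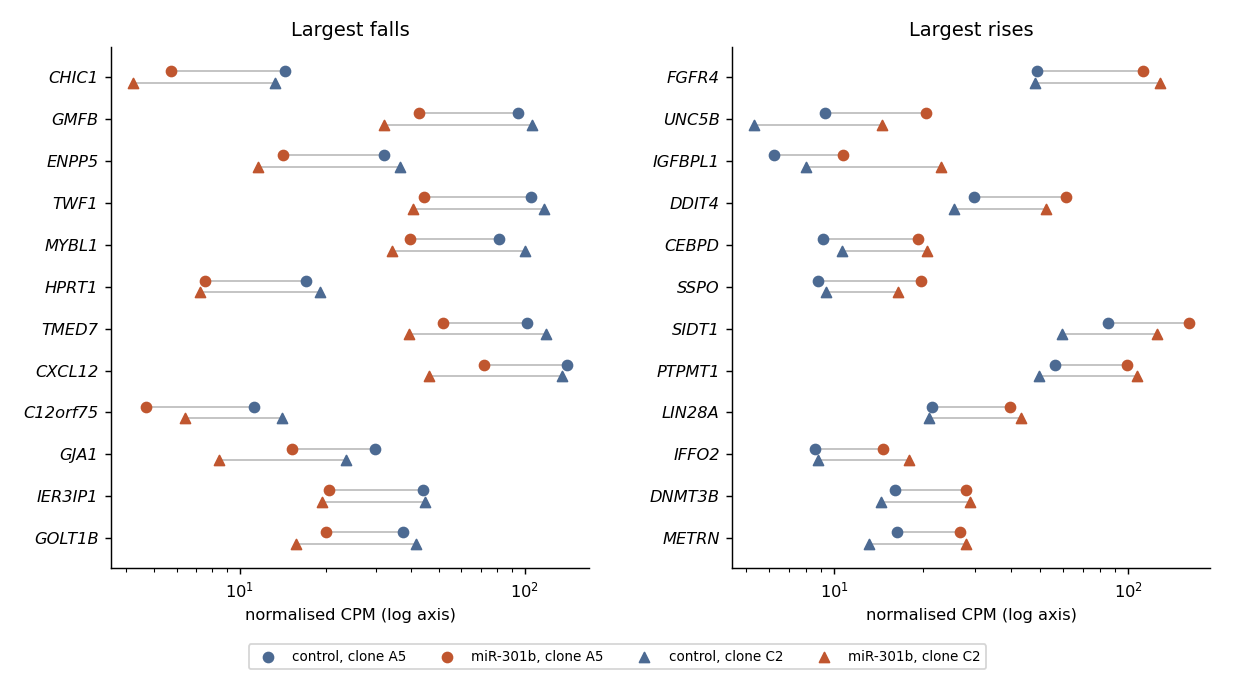
Normalised CPM on a log axis for the 12 largest falls (left) and the 12 largest rises (right) among genes that passed the test and whose mean reached 3 log2 CPM. Each gene has 2 rows, circles for clone A5 and triangles for clone C2, with blue for the control, orange for the mimic and a grey line joining the libraries of 1 clone. In every gene both orange points lie on the same side of both blue points.

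Sites for the mimic were common among the genes that fell and rare among those that rose. Of the 949 genes that fell and had a 3′UTR, 122 (12.9%) had an 8-base site and 267 (28.1%) a 7-base site as their best match, against 3.32% and 12.8% of genes tested. Of the 779 that rose, 10 (1.28%) had an 8-base and 39 (5.01%) a 7-base site. Seen from the sites, 28.0% of genes with an 8-base site fell and 2.29% rose, and with a 7-base site 15.9% fell and 2.32% rose. With a 7-base A1 site 14.6% fell and 1.06% rose, whereas with a 6-base site 7.12% fell and 5.37% rose. Genes with none fell in 3.82% and rose in 7.4%. In all, 300 of the falls had no match of 6 bases or more in the 3′UTR.

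The whole distribution moved in that order. The median log2 fold change was −0.24 over 436 genes with an 8-base site (quartiles −0.46 and −0.023), −0.12 over 1684 with a 7-base site, −0.11 over 471 with a 7-base A1 site, −0.014 over 2681 with a 6-base site and 0.059 over 7853 with none. The 8-base genes stood −0.30 from the genes with no site, −0.23 in the A5 pair alone and −0.38 in the C2 pair alone. With the longest annotated 3′UTR of each gene the difference was −0.29. More sites went with lower values. Medians were −0.12 with 1 site of the 7-base or 8-base kind (1710 genes), −0.21 with 2 (325 genes), −0.28 with 3 (67 genes) and −0.31 with 4 or more (18 genes, 8 of which fell and none rose). In the 14 genes with at least 2 sites of 8 bases the median was −0.50, and 8 of them fell. A seed match in the coding sequence only went with a median of −0.054 (784 genes), against 0.042 for genes with none in either place (10221 genes). These medians describe genes and are not tests, since genes of 1 library are not replicates.

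**Figure D2:**
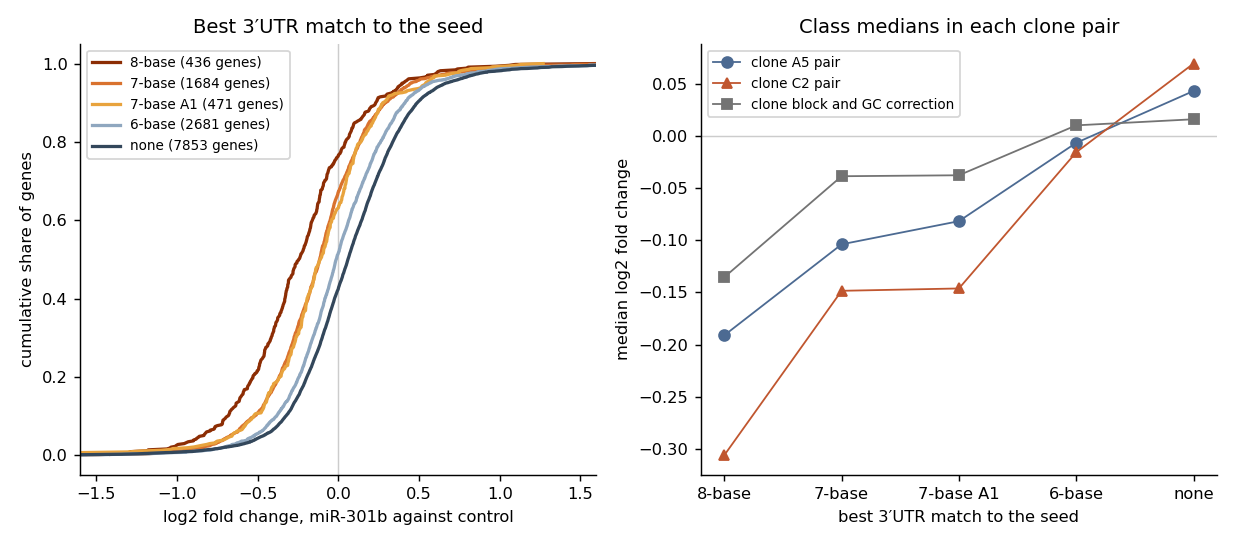
Left, the cumulative share of genes (vertical axis) against the log2 fold change with the mimic (horizontal axis) for each class of best 3′UTR match to the seed. Right, class medians in the A5 pair (circles), the C2 pair (triangles) and the fit with the clone as a block and GC correction (squares). The 8-base curve lies furthest left, and both clone pairs place its median lowest, at −0.19 and −0.31.

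Genes with sites had longer 3′UTRs and less GC, and the difference was also taken within 4 equal groups of genes by each. The median GC content was 42.7% in 8-base genes and 51.5% in genes with no site, and the median 3′UTR length 3305 and 728 bases. In the group of lowest GC content (30.7 to 41.9%) the median was −0.30 with a 7-base or 8-base site and −0.23 without, and 33.2% against 18.2% of genes fell. In the highest group (57.3 to 76.0%) the medians were 0.14 and 0.29, so that genes with a site rose less. The difference was −0.074 and −0.053 in the groups between. The step from the lowest to the highest group among genes without a site was larger than any of these differences. Across the groups of 3′UTR length the difference ran from −0.21 in the shortest to −0.088 in the longest. With the block and GC correction the class medians were −0.14 (8-base), −0.038 (7-base), −0.038 (7-base A1), 0.01 (6-base) and 0.016 (none). The order of 8-base below 7-base below no site held there, and the distance of 8-base genes from genes with none was −0.15.

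**Figure D3:**
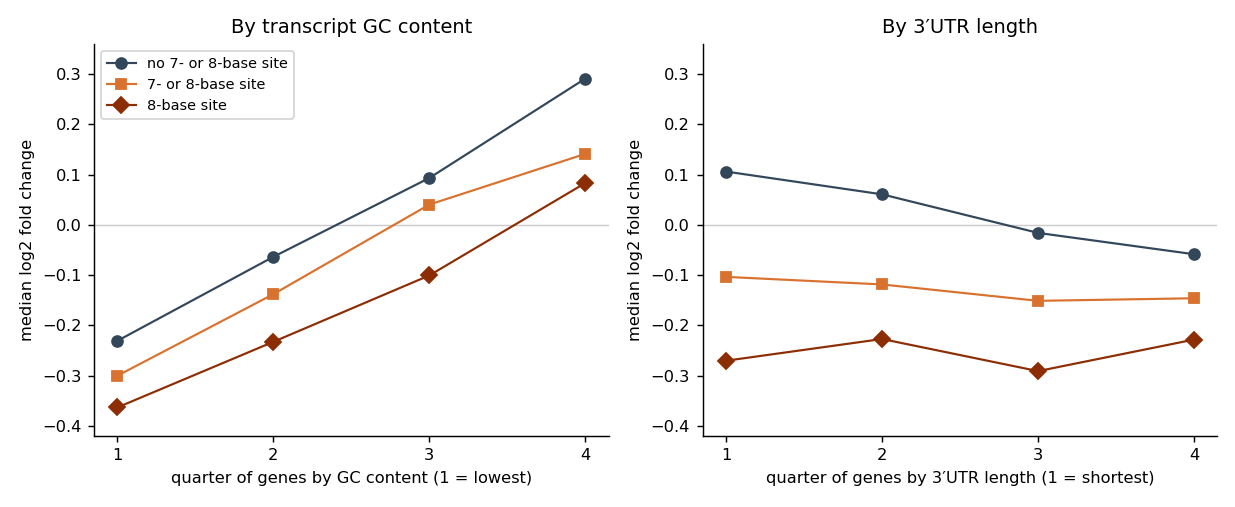
Median log2 fold change with the mimic in 4 equal groups of genes by transcript GC content (left) and by 3′UTR length (right), for genes without a 7-base or 8-base site (circles), with one (squares) and with an 8-base site (diamonds). Genes with an 8-base site lie lowest in every group, and on the left all 3 lines climb with GC content.

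The 8 genes with an 8-base site and the smallest p-values included genes of membrane traffic, calcium signalling and mitosis. CALM2, which encodes calmodulin, was at 354 and 398 CPM in the controls and 193 and 180.0 CPM with the mimic (−1.01 ± 0.087, adjusted p = 0.00181, edgeR). RAB5A, the GTPase of early endosomes, was at 83.3 and 82.8 CPM in the controls and 47.8 and 41.3 CPM with the mimic (−0.90 ± 0.097). ACBD5, which tethers peroxisomes to the endoplasmic reticulum, was at 42.9 and 44.8 CPM in the controls and 23.9 and 22.1 CPM with the mimic (−0.93 ± 0.10). The mimic libraries of these genes lay close together. FBXO28, an F-box protein with 4 sites of 7 or 8 bases, went from 89.3 and 86.2 to 46.3 and 38.8 CPM (−1.04 ± 0.10). MMGT1, a subunit of the membrane protein insertase EMC, went from 48.0 and 48.4 to 26.2 and 25.5 CPM (−0.90 ± 0.096), and DEPDC1, which acts in mitosis, went from 67.1 and 84.4 to 36.97 and 35.5 CPM (−1.06 ± 0.12). ENPP5 and MYBL1 are given above. After miR-181c in the same clones, the log2 fold changes of these genes from the shared controls were −0.24 (CALM2), −0.086 (RAB5A), −0.0016 (ACBD5), 0.024 (FBXO28), −0.097 (MMGT1) and −0.57 (DEPDC1). Those of ENPP5 and MYBL1 were −0.32 and −0.60. DEPDC1 and MYBL1 passed with miR-181c (adjusted p = 0.0135 and 0.0102, edgeR) and the others did not.

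ER itself and a group of genes that estrogen induces fell with the mimic. ESR1 was at 241 and 241 CPM in the controls and 149.6 and 114 CPM with the mimic, with the controls nearly equal and both mimic libraries far below them (−0.87 ± 0.12, adjusted p = 0.00466, edgeR). Its 3′UTR holds 2 sites of 7 bases, 1 of them printed above. Of 21 tested ER target genes on the list, 8 fell and 1 rose, where 6.49% of all genes tested fell and 5.29% rose. The list median was −0.31 where the median of all genes tested was 0.0055. CA12, a carbonic anhydrase, went from 902 and 1012 to 590.1 and 558 CPM (−0.74 ± 0.082). PGR, the progesterone receptor, went from 813 and 875 to 632 and 537.2 CPM (−0.53 ± 0.091) and holds an 8-base site of its own. GREB1, an ER cofactor, went from 247 and 263 to 189.8 and 177 CPM (−0.48 ± 0.081). MYC fell by 0.73, MYB by 0.79, STC2 by 0.76 and SIAH2 by 0.29 on the log2 scale. CTSD, a lysosomal protease, rose by 0.27 and CCND1 was at −0.14 without passing (adjusted p = 0.249, edgeR). TFF1 stayed under 1 CPM in all 4 libraries. CTSD turned to −0.052 with the block and GC correction, whereas the 8 falls held. Of 6 pioneer and luminal factors SPDEF rose (0.60), while FOXA1 (0.10) and GATA3 (0.0065) did not pass.

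Of 34 tested genes named in the literature as targets of this miRNA family, 10 fell and none rose, where 6.49% of all genes tested fell and 5.29% rose, with a median of −0.28. With the block and GC correction 11 fell and 1 rose, with the block alone 17 and 2, with DESeq2 11 and 1, and with the GC correction alone 4 fell and none rose. DICER1, which cuts miRNA precursors, was at 177 and 209 CPM in the controls and 96.7 and 82.3 CPM with the mimic (−1.11 ± 0.11, adjusted p = 0.0022, edgeR), and its 3′UTR holds 3 sites of 7 bases. ERBB2IP (Erbin), a scaffold of ERBB2, went from 199.98 and 193 to 139 and 120.1 CPM (−0.60 ± 0.091). TSC1 and CYLD, both growth suppressors, fell by 0.42 and 0.45, and ZBTB4, which binds methylated DNA, by 0.32. SMAD4, with 2 sites, was at −0.22 and did not pass (adjusted p = 0.172, edgeR). CDKN1A, with a 7-base site, was at 0.42 and did not pass (adjusted p = 0.0679, edgeR). TGFBR2 was under 0.2 CPM in every library and was not tested.

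Several genes of the silencing machinery fell. Of 28 tested genes of miRNA processing and silencing, the host genes of the family included, 8 fell and 2 rose, with a median of −0.20. Of all genes tested, 6.49% fell and 5.29% rose. CNOT6, a deadenylase of the CCR4-NOT complex, was at 172 and 175 CPM in the controls and 100.0 and 80.9 CPM with the mimic (−0.94 ± 0.11). The helicase DDX6, which links silencing to decapping, went from 314 and 344 to 248 and 234 CPM (−0.45 ± 0.082), and the decapping enzyme DCP2 fell by 0.50 and CNOT6L by 0.44. All 4 Argonaute genes and all 3 GW182 genes hold a 7-base or 8-base site. AGO1 and TNRC6A fell by 0.40 and 0.40, whereas AGO2, with 6 sites, was at −0.21 (adjusted p = 0.148) and AGO3 at −0.084 (adjusted p = 0.747), with values of edgeR. TARBP2, the partner of Dicer, rose by 0.42. The host genes of the family moved apart. SKA2, which holds miR-301a and miR-454, fell by 0.72, and PPIL2, which lies with miR-301b, went from 86.3 and 85.6 to 109.9 and 108 CPM (0.34 ± 0.081). With the block and GC correction 11 of the 28 fell and 3 rose, CNOT6L and TARBP2 not among them. With the block alone 17 fell and 2 rose, and with the GC correction alone 2 fell and 1 rose.

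Some cell cycle genes fell. None of 42 tested S phase genes and none of 54 tested G2/M genes rose, while 12 and 16 fell, where 6.49% of all genes tested fell, and both list medians were −0.27. In S phase, RRM2, a subunit of ribonucleotide reductase, went from 307 and 347 to 234 and 249.7 CPM (−0.44 ± 0.087), PCNA went from 185 and 199.5 to 151 and 161 CPM (−0.30 ± 0.083) and CCNE2 (cyclin E2) fell by 0.47. ATAD2 fell by 0.44. In G2/M, SMC4, of condensin, went from 574 and 665 to 432 and 414 CPM (−0.55 ± 0.087), CENPE, a kinetochore motor, went from 99.9 and 117 to 70.8 and 75.6 CPM (−0.57 ± 0.099), and G2E3 fell by 0.71. The marker of cycling cells MKI67 was at 605 and 757 CPM in the controls and 538.1 and 626 CPM with the mimic, ranges that overlap (−0.23 ± 0.11, adjusted p = 0.217, edgeR). KIF14, a mitotic kinesin that the study follows, was at 62.8 and 77.1 CPM in the controls and 43.9 and 46.3 CPM with the mimic (−0.63 ± 0.11) and held with the block and GC correction. CDK1, the kinase that starts mitosis, was at 224 and 248 CPM in the controls and 177 and 198 CPM with the mimic (−0.33 ± 0.09, adjusted p = 0.0417) but turned to 0.048 in that fit. There, 14 S phase and 22 G2/M genes fell and none rose, and with the GC correction alone none of either list passed in either direction. Of genes with a 3′UTR, 5 of 41 S phase and 2 of 53 G2/M genes hold a 7-base or 8-base site. Over all tested genes with a 3′UTR, the best match was an 8-base site in 3.32% and a 7-base site in 12.8%. With the same mimic, the S phase and G2/M list medians were −0.040 and −0.043 in WT cells and −0.16 and −0.24 in Y537S cells. The difference of these list medians between genotypes was not tested. In bulk RNA, fewer cells in a phase and less RNA per cell cannot be told apart.

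Of 21 tested G1 regulators, CCNE2 and the pocket proteins RB1 (−0.43) and RBL1 (−0.41) fell, where 6.49% of all genes tested fell. None of these 3 held with the block and GC correction. The inhibitor CDKN1C (p57) rose from 3 and 0 counts in the controls to 34 and 19 counts with the mimic, a ratio of 15.7 after scaling to library size (95% exact interval 5.09 to 78.6, counting error only), at a level under 1 CPM throughout.

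**Figure D4:**
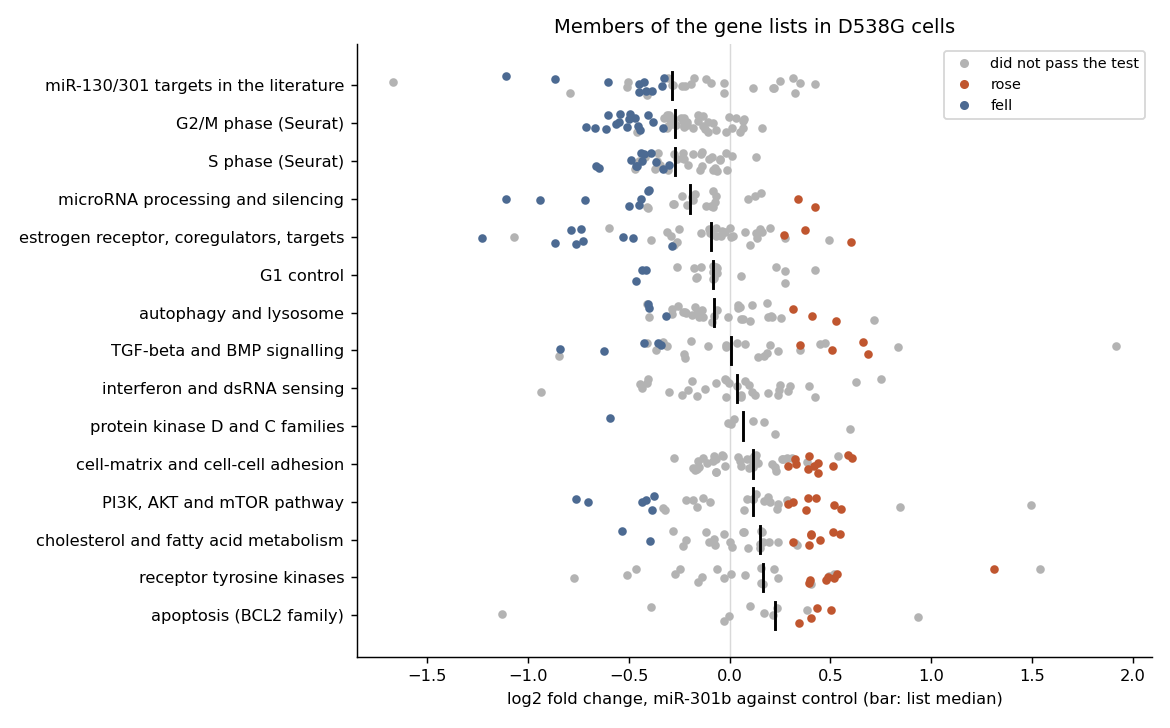
Log2 fold change with the mimic (horizontal axis) for every tested member of each gene list (rows, ordered by list median), with genes that rose in orange, genes that fell in blue and others in grey, and a black bar at the list median. CDKN1C, with 3 control counts, is not drawn. The family targets, S phase, G2/M and silencing lists lie lowest, and receptor tyrosine kinases and the BCL2 family highest.

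Within PI3K signalling the mimic moved single members both ways. PIK3CB, the catalytic subunit p110-beta, was at 169 and 164 CPM in the controls and 104 and 92.2 CPM with the mimic (−0.76 ± 0.089, adjusted p = 0.00295, edgeR), and its 3′UTR holds an 8-base site and 2 sites in all. PIK3C2A fell by 0.44 and PIK3CA by 0.37, and the phosphatase PHLPP2, which acts on AKT, fell by 0.70. Rises were seen in PIK3R2 (0.43), AKT1 (0.29), AKT2 (0.31) and the mTOR complex members RPTOR (0.55), MLST8 (0.52) and MAPKAP1 (0.39). In all, 7 of 33 tested members rose and 6 fell, with a median of 0.12, where 5.29% of all genes tested rose and 6.49% fell. With the GC correction alone none rose and 3 fell, and with the block alone 10 rose and 8 fell. With the block and GC correction 7 rose and 3 fell. Neither AKT1, AKT2, PIK3R2, PIK3C2A nor PIK3CA held there. PRKD3, a protein kinase D that the study follows, was at 47.8 and 52.6 CPM in the controls and 35.4 and 31.1 CPM with the mimic (−0.59 ± 0.11, adjusted p = 0.0102, edgeR), with 1 site of 7 bases. It held with the block and GC correction. Its paralogue PRKD2, with no site, was at 0.22 (adjusted p = 0.194), and none of 6 tested protein kinase C genes passed, though 2 rose with the block and GC correction, 1 with the block alone and 1 with DESeq2. PLAGL2 (0.052 ± 0.084) and TUSC2 (−0.05 ± 0.095), which the study names for let-7f, did not pass (edgeR, adjusted p = 0.735 and 0.777).

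Without a block, receptor tyrosine kinases rose or did not pass. Besides FGFR4, ERBB2 (HER2) went from 490.0 and 459.9 to 648 and 673 CPM (0.48 ± 0.075) and FGFR3 went from 27.4 and 29.7 to 39.3 and 43.3 CPM (0.53 ± 0.11), and EPHA1, EPHB3, EPHB6 and PTK7 also rose. With these, 7 of 27 tested receptors rose and none fell, where 5.29% of all genes tested rose and 6.49% fell. With the block and GC correction the count was again 7 and 0, with FGFR1 and TYRO3 in place of EPHA1 and EPHB3. With the block alone 11 rose and 1 fell, and with the GC correction alone 1 rose and none fell. IGF1R was at 0.009 and EGFR, with 2 sites, at 0.16. In TGF-beta and BMP signalling 4 of 32 rose and 5 fell, beside the same 5.29% and 6.49% of all genes tested. With the block and GC correction 6 rose and 4 fell, where 7.9% of all genes tested rose and 8.94% fell. With the block alone 10 rose and 11 fell, and with the GC correction alone none passed. TGFBR1, the type I receptor, was at 101 and 157 CPM in the controls and 62.6 and 81.2 CPM with the mimic, where the C2 clone was the higher in both conditions (−0.84 ± 0.19). Its fall held with the block and GC correction but was not called by DESeq2 (adjusted p = 0.0858) or with the GC correction alone (edgeR, adjusted p = 0.185). ZFYVE9 (SARA), which presents SMADs to the receptor, fell by 0.62 and SMAD5 by 0.42, and SMAD3, SMAD6, SKI and ACVR1B rose by 0.66, 0.69, 0.35 and 0.51. The calls of SMAD5 and SKI did not hold with the block and GC correction. ACVR1B, which rose, has a 7-base site in its 3′UTR.

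Of 50 tested adhesion genes, 11 rose and none fell, where 5.29% of all genes tested rose and 6.49% fell, with a median of 0.12. CLDN3 and CLDN4, of tight junctions, went from 229.7 and 198 to 326 and 324 CPM (0.61 ± 0.089) and from 255 and 249 to 351 and 407 CPM (0.59 ± 0.088). LAMA5, of the basement membrane, rose by 0.44, LAMB2 by 0.33, AGRN by 0.44 and the integrin ITGA3 by 0.51. With the block and GC correction 9 rose and 4 fell, and LAMA5, LAMB2 and AGRN were not among them. With the block alone 17 rose and 3 fell, and with the GC correction alone none passed. Of 31 genes of cholesterol and fatty acid metabolism, 7 rose and 2 fell, beside the same 5.29% and 6.49% of all genes tested. With the block and GC correction 6 rose and 2 fell. With the block alone 11 rose and 4 fell, and with the GC correction alone 1 rose and none fell. FASN, fatty acid synthase, was at 2119.5 and 1989 CPM in the controls and 2871 and 2988 CPM with the mimic (0.51 ± 0.07), and the sterol regulators SREBF1 and SREBF2 rose by 0.55 and 0.39. SC5D, with an 8-base site, fell by 0.54 and IDI1 by 0.40, and the call of IDI1 did not hold. Of 14 genes of the BCL2 family 4 rose and none fell, where 5.29% of all genes tested rose and 6.49% fell. The 4 were MCL1 (0.34), BMF (0.50), BAD (0.43) and BAK1 (0.40), and MCL1 and BMF held with the block and GC correction. In that fit 3 of the 14 rose and none fell. With the block alone 7 rose and 1 fell, and with the GC correction alone 1 rose and none fell. In autophagy the counts lay near those of all genes tested (5.29% rising, 6.49% falling), as 3 of 37 rose (ULK1, SQSTM1 and ATG4A, by 0.41, 0.31 and 0.53) and 3 fell (LAMP2, RB1CC1 and ATG3, by 0.40, 0.41 and 0.32). Of these, ULK1, LAMP2 and RB1CC1 did not hold with the block and GC correction, in which 4 rose and 5 fell. With the block alone 8 rose and 10 fell, and with the GC correction alone none passed.

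None of 33 tested genes of the interferon response and of double-stranded RNA sensing passed in either direction, where 11.8% of all genes tested passed. The list median was 0.034. IFIT1, an antiviral effector, was at 2.63 and 3.00 CPM in the controls and 2.12 and 3.42 CPM with the mimic. EIF2AK2 (PKR), which senses double-stranded RNA, was at 39.0 and 39.1 CPM in the controls and 35.8 and 35.9 CPM with the mimic (−0.12 ± 0.095). With the block 1 of the 33 rose and 2 fell, where 33.3% of all genes tested passed, and DESeq2 called 0 up and 0 down.

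The same mimic had been given to WT and Y537S cells, which share no library with the D538G comparison, and most D538G responses pointed the same way there. In WT cells 1284 genes passed (8.5% of those tested) and in Y537S cells 541 (3.57%). Of 961 genes that fell in D538G cells and were tested in WT cells, 940 were below 0 there (50.3% of all genes tested in both were), and 375 fell with the same threshold, 39.0% of the D538G list and 64.3% of the WT list. All 961 tested in Y537S cells were below 0 (49.5% of all genes were), and 332 fell, 34.5% of the D538G list and 93.5% of the Y537S list. Of the rises, 780 of 783 were above 0 in WT cells and 782 of 785 in Y537S cells. Of all genes tested in both, 49.7% were above 0 in WT cells and 50.5% in Y537S cells. Across genes tested in both, Pearson's r between the log2 fold changes was 0.53 with WT (14524 genes) and 0.62 with Y537S cells (14595 genes), a description across genes that share base composition. Genes with an 8-base site had medians of −0.24 in WT and −0.27 in Y537S cells, beside −0.24 in D538G cells.

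Testing the difference itself found 1 gene of 15613 between the D538G and WT responses (0.0064%) and 0 of 15581 between D538G and Y537S (0.0%; edgeR's quasi-likelihood test), with 478 and 180 genes at an unadjusted p under 0.05. DESeq2 called 2 and 1. With the replicate block 23 and 3 genes passed. For genes whose mean reached 3 log2 CPM, the 95% interval of the difference had a median half-width of 0.331 (log2) against WT cells. Against Y537S cells it was 0.362. Differences smaller than about that were not resolved for a typical gene. Larger ones could also fail to pass, as these intervals are not adjusted over all genes. Differences from WT of 0.70 (DDIT4) and −0.60 (MYBL1) did not pass. SDAD1, whose yeast relative acts in ribosome assembly, was the gene that passed. On a scale common to the 3 genotypes it went from 239 and 177 to 106 and 105 CPM in D538G cells, and from 56.0 and 59.2 to 156 and 116 CPM in WT cells. Both D538G clones therefore fell and both WT clones rose, and the WT controls were far below the D538G controls. The log2 fold changes were −0.98 ± 0.12 and 1.24 ± 0.14, and their difference −2.22 ± 0.21 (adjusted p = 0.00438, edgeR). It lost the call when either D538G mimic library was left out. SDAD1 was at −1.46 ± 0.12 in Y537S cells and at −0.067 with miR-181c in D538G cells, and its 3′UTR holds no site. It overlaps NAAA on the same strand, so that its reads may be shared.

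ESR1 fell by 0.87 in D538G and 0.70 in WT cells, and was at −0.96 in Y537S cells without passing (adjusted p = 0.092, edgeR). Its WT controls lay at 118 and 117 CPM, under the D538G controls and close to the level that D538G clone C2 had with the mimic. The difference of the ESR1 response from WT was −0.16 (95% interval −0.49 to 0.16) and from Y537S 0.081 (−0.62 to 0.78). For PRKD3 it was −0.16 from WT (−0.47 to 0.15) and 0.015 from Y537S (−0.47 to 0.50). CDK1 was at 0.089 in WT cells and the difference was −0.42 (−0.79 to −0.051), which did not pass after adjustment over all genes (unadjusted p = 0.0292, adjusted p = 1, edgeR). DDIT4 rose by 1.04 in D538G and was at 0.34 in WT cells, a difference of 0.70 (0.35 to 1.05) that did not pass (adjusted p = 1, edgeR) and passed with the replicate block (adjusted p = 0.00505). Intervals that hold 0 do not show that the genotypes respond alike.

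**Figure D5:**
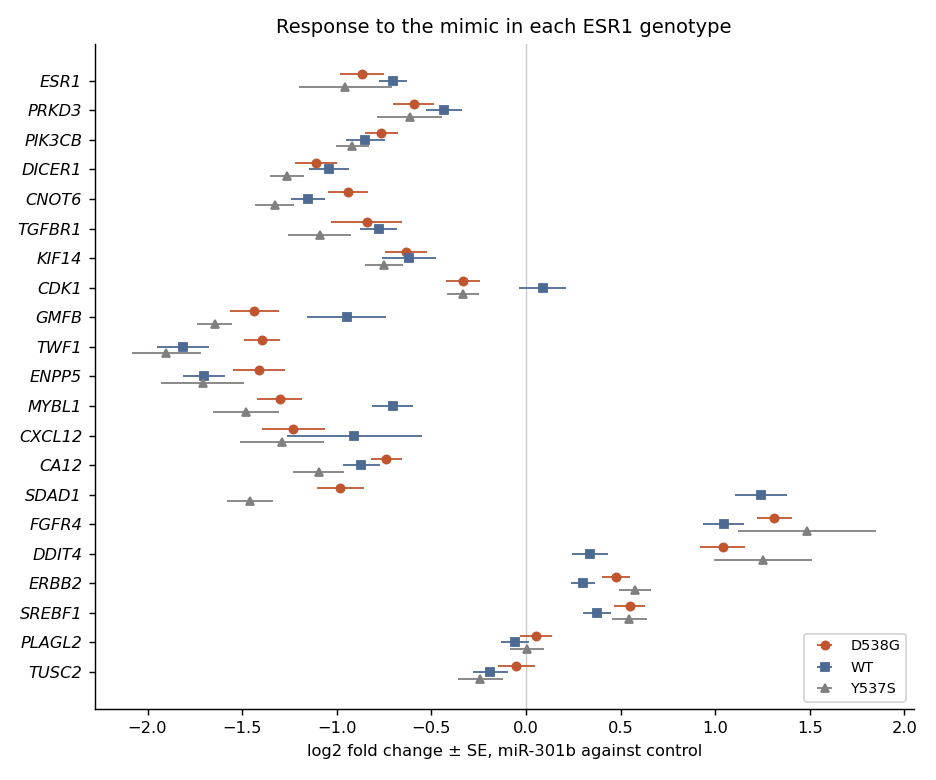
Log2 fold change with the miR-301b mimic, with its SE as bars, for 21 named genes in D538G (circles), WT (squares) and Y537S cells (triangles), 2 clones each. SDAD1 lies on opposite sides of 0 in D538G and WT cells, and the other genes drawn beyond 0.5 in D538G cells lie on the same side in all 3 genotypes.

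Set directly against the miR-181c mimic in the same clones, the miR-301b libraries differed in 358 of 14979 genes (2.39%), 231 lower with miR-301b (1.54%) and 127 higher (0.848%). Of the 229 lower genes with a 3′UTR, 133 (58.1%) hold a 7-base or 8-base site for miR-301b, against 16.1% of genes tested, and 23.6% a 7-base site for miR-181c, against 21.3%. Of the 123 higher genes, 13.8% hold a site for miR-301b and 77.2% one for miR-181c. Spearman's rho with GC content was 0.12 here. The median of 8-base genes was −0.15, of 7-base genes −0.048 and of genes with no site 0.016. No control library enters this comparison. Lowest with miR-301b were MMD (−1.43 ± 0.18), TMED7 (−1.31 ± 0.13), CDK19, a Mediator kinase (−1.25 ± 0.14), and TWF1 (−1.25 ± 0.083). Against the control, these 4 were at −1.11, −1.28, −0.42 and −1.39 with miR-301b and at 0.33, 0.032, 0.84 and −0.14 with miR-181c. CDK19 did not pass with miR-301b (adjusted p = 0.145, edgeR) and rose with miR-181c (adjusted p = 0.0069). Highest were DRAM1, of autophagy (1.31 ± 0.15), KIF3B, a kinesin (1.12 ± 0.079), ZNF788 (1.05 ± 0.15) and ARHGEF3 (1.04 ± 0.13). From the control, these genes were at 0.50, −0.032, −0.15 and 0.22 with miR-301b and at −0.81, −1.15, −1.19 and −0.82 with miR-181c, values that share the 2 controls. ESR1 also fell with miR-181c, by 0.60 from the shared controls. Its difference between the mimics was −0.26 ± 0.14 and did not pass (adjusted p = 0.478, edgeR; 0.000955 with the replicate block), whereas PRKD3 was lower by 0.52 (adjusted p = 0.0459, edgeR). The largest rises with miR-301b also had values with miR-181c, which share the controls. Genes that passed with miR-181c were at 1.26 (CEBPD), 1.17 (IGFBPL1), 0.99 (PTPMT1), 0.98 (METRN), 0.94 (FGFR4), 0.86 (SIDT1), 0.83 (DNMT3B) and 0.44 (DDIT4). UNC5B (0.88), SSPO (0.52), IFFO2 (0.51) and LIN28A (0.0039) did not pass with miR-181c. In the direct comparison of the mimics, DDIT4 (adjusted p = 0.0319) and LIN28A (0.0113) were higher with miR-301b (edgeR) and the other 10 did not pass. Among those 10, FGFR4 (adjusted p = 0.000138), UNC5B (0.0278) and SSPO (0.00581) were higher with miR-301b once the replicate block was used (edgeR). CEBPD (0.0707) and IGFBPL1 (0.839) did not pass in that fit. CLDN4 and FASN also rose with miR-181c, by 0.78 and 0.51. Among the falls named above, CXCL12 (−0.69), DICER1 (−0.66), CNOT6 (−0.66), MYBL1 (−0.60), PIK3CB (−0.60) and PHLPP2 (−0.55) also fell with miR-181c, from the shared controls. Their adjusted p-values there lay between 0.00334 and 0.015 (edgeR). KIF14 (−0.32) and HPRT1 (−0.28) were among those that did not pass. PIK3CB differed by −0.16 ± 0.098 between the mimics and did not pass (edgeR, adjusted p = 0.553, and 0.0261 with the replicate block).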

How the data were processed

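Gene expression was measured by poly-A RNA-seq in 24 libraries of T-47D clones, of which the 4 D538G libraries with the miR-301b mimic or its control were compared. The authors aligned reads to hg19 with HISAT2 and assigned them to genes with featureCounts of Subread, and deposited raw counts per gene without normalization. The tool versions, the strand setting and the handling of reads that map to several genes were not given in the sources used here, so that counts of overlapping genes (ESR1 with SYNE1, PRKD3 with NDUFAF7 and SDAD1 with NAAA among those named) may hold reads of both. Columns name D538G and WT clones A5, C2, D1 and D4 and were assigned to groups by name. All per-sample columns were mapped (0 left out).

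Counts were filtered with filterByExpr, scaled with TMM and tested with the quasi-likelihood test of edgeR 4.0.16 in R 4.3.3 on the libraries of each comparison, without a block. Genes were called at a Benjamini-Hochberg adjusted p under 0.05, and log2 CPM used a prior count of 2. The comparisons were mimic against control in D538G cells, its interaction with WT and with Y537S, and miR-301b against miR-181c. Alternatives were DESeq2 1.42.0, median-ratio size factors, no filter, the clone as a replicate block, a GC correction (lowess span 0.3, as an offset), both together, more conditions in 1 fit, and each library left out in turn. The script was tested on simulated data. Libraries of the same clone name come from the same clone and are paired. The deviations of C2 from A5 correlated at 0.24 between control and mimic libraries across genes.

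Of 26364 genes, 22494 were matched to GENCODE release 44 on GRCh37 by symbol and 1354 by an older symbol. Each 3′UTR came from 1 transcript per gene. Named genes were genes the study names (TUSC2 and PLAGL2 it names for let-7f, not for this mimic), the 12 largest rises and falls whose mean reached 3 log2 CPM, up to 3 called members per list and direction by p, the 8 falls with an 8-base site and the smallest p, and up to 4 genes per direction of the other comparisons. Further list members were named to complete a pathway, and PGR, MYC, MKI67, the Argonaute genes and others among them were chosen after their values were seen. The genes, lists and comparisons were chosen with earlier results of these data known. Some genes of the lists or of the study's text are not reported here by name.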

Additional observations from a re-analysis of the deposited data

Results flagged for a closer look

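SDAD1 stood out because its response to the mimic differed between D538G and WT cells by −2.22 on the log2 scale in a test of the difference (adjusted p = 0.00438, edgeR). It went down in both D538G clones, by 1.17 and 0.75, and up in both WT clones, by 1.48 and 0.97 (log2 of CPM plus 0.1). The call was lost when either D538G mimic library was left out and was kept when any other library was.

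PLAGL2 moved in opposite directions in every clone of the 2 genotypes, with a median log2 difference of 0.056 in D538G cells (0.096 in A5 and 0.017 in C2) and values of −0.065 and −0.047 in the WT clones. This opposition was not tested beyond the interval of the difference, which ran from −0.13 to 0.35 and did not pass (edgeR, adjusted p = 1).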

How the results depend on the processing

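The count of 1750 genes changed by the mimic became 213 with the GC correction, 2871 with no filter on low counts and 4941 with the replicate block, and ran from 744 to 2083 when 1 library was left out, lowest without the C2 mimic library and next without the C2 control (939). DESeq2 gave 2210 and the block with GC correction 2411. The difference between the D538G and WT responses, 1 gene, became 2 with DESeq2, 19 with no filter, 23 with the replicate block and 70 with the block and GC correction, and 0 to 1 with 1 library left out, 0 without either D538G mimic library. That between D538G and Y537S, 0 genes, became 1 with DESeq2, 2 with no filter, 3 with the block, 25 with the block and GC correction, and 0 to 1 with 1 library left out, 1 without the control of Y537S clone 2. The 358 genes between the mimics became 769 with DESeq2, 581 with the control libraries in the fit, 1082 with no filter, 2659 with the block and 2930 with the block and GC correction, and 347 to 621 with 1 library left out, 607 without the miR-181c library of A5 and 621 without the miR-301b library of A5. The share of higher genes there was 35.5%, 43.5% with the GC correction and 46.5% with block and correction. The distance of 8-base genes from genes with no site, −0.30, became −0.15 with the GC correction and −0.15 with block and correction. CDK1 turned to 0.052 with the GC correction and 0.048 with the block added, and CTSD to −0.052 in both. The cause of these changes was not tested, except that leaving out a library lowers the number of samples.

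Of 86 named genes of the comparison with the control, 51 lost the call with the GC correction and 14 with block and correction, besides the 2 that reversed, and none changed side of the threshold with the block alone, median-ratio size factors, no filter or more conditions in 1 fit. Without the C2 mimic library 21 lost it, without the C2 control 18. Of 30 counts over lists, 23 stayed within 1.5 times under block and correction, 10 under the GC correction alone and 8 under the replicate block alone. With 2 clones per group, genes at low counts and differences between genotypes under about 0.33 to 0.36 on the log2 scale were not resolved. Larger differences between genotypes could also fail to pass after adjustment over all genes.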
